A study of Mus musculus with 6 samples.

Results

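The genes described here encode components of complement, an inhibitor of its first step and the receptors of its small cleavage products: C1qa, C1qb, C1qc, C3, C4b, Serping1, C3ar1 and C5ar1. All probe sets that the platform annotation pairs with 1 of these 8 symbols were taken, which gave 12 of the 45101 probe sets on the array, for 7 genes; the array names 18193 genes by probe sets with 1 symbol. C3 was not analysed here, because the annotation used here names no probe set for it. The 1 probe set of C4b is also assigned to its near-identical neighbour C4a, so its value can hold RNA of either gene and is given as C4a/C4b.

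The tissue was spinal cord at lumbar level L1, taken from male SCID (severe combined immunodeficiency) mice that were 15 weeks old, 6 weeks after the injection. Mice with this mutation lack functional T and B lymphocytes, while microglia and other innate immune cells remain. N-inv mice had received Capan-1 cells, an established human pancreatic cancer line, in the sciatic nerve of the left side. SC mice carried Capan-1 cells under the skin, and the PBS group received buffer, by a route that the labels do not give. Each group had 2 arrays, and the labels do not state whether these were separate animals, so the p-values measure the spread between these arrays, which may in part be technical.

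Complement is a cascade of plasma and tissue proteins that tags surfaces for uptake. In the classical pathway, C1q, built from the chains of C1qa, C1qb and C1qc, binds a target and activates the proteases C1r and C1s, which cleave C4 and C2; the resulting enzyme cleaves C3. SERPING1, the C1 inhibitor, inactivates C1r and C1s. In the nervous system microglia are known as the main source of C1q, C4 is made by astrocytes and other cells, and C3aR and C5aR1 are receptors on microglia and other myeloid cells for the fragments C3a and C5a.

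The C1q genes lie next to each other on chromosome 4 in the order C1qb, C1qc, C1qa, with no other gene of the RefSeq table between them. The 250 bases before the start sites that the promoter table gives for C1qb and C1qc are shown because these neighbouring genes both measured higher in N-inv than in PBS. Of the 8 genes 5 are in the RefSeq promoter table (build GRCm38.p6). The C1qb stretch is chr4:136886201-136886450 and the C1qc stretch chr4:136892915-136893164, both read 5′ to 3′ on the minus strand. The start that the promoter table uses for C1qc lies inside the gene's annotated span, so 22 bases of its stretch are within the gene, while the C1qb stretch has 0. Capitals mark matches to GAGGAA, the core bound by PU.1, an ETS family factor of myeloid cells, on either strand.
C1qb: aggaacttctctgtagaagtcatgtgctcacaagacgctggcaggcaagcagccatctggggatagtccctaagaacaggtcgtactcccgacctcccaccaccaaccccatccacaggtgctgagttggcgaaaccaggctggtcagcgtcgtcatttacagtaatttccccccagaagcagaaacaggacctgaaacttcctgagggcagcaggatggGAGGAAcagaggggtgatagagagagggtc
C1qc: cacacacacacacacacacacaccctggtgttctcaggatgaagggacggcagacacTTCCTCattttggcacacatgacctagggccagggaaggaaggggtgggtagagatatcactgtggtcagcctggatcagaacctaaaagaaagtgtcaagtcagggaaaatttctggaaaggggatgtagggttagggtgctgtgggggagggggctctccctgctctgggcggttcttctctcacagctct
Each stretch held 1 match, from base -30 to -25 before the C1qb start and from base -193 to -188 before the C1qc start, the second on the opposite strand. The same 6 letters occur in 23.3% of 32851 promoters of this length, so a match in both is a description only. TGANTCA (AP-1), TTCNNNGAA (STAT) and the IRF element, searched on both strands, had no match in either stretch and occur in 6.75%, 7.02% and 2.98% of the promoters.

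All levels below are intensities scaled to a common array median of 256.2. Neurons, oligodendrocytes and astrocytes of the cord were well represented, with 11 of 12, 7 of 8 and 10 of 10 marker genes above a filter at the 40th percentile of the probe sets, an intensity of 147.7; of 7 measured liver markers 0 passed it. The SC arrays stood apart: the median correlation of an SC array with the rest was 0.972 and 0.971, and that of each N-inv and PBS array was 0.981. SC replicate 2 measured 13065 for Xist, the RNA of the inactive X chromosome in female cells, where the other 5 arrays lay between 138.6 and 228.5 and all mice are labelled male. The Actb 3'/5' probe ratio, which reads RNA quality, was 4.7 on that array and 3.05 to 3.81 on the others. The Gapdh 3'/5' ratio did not set it apart, at 3.12 and 3.38 in N-inv, 3.52 and 3.38 in SC and 2.82 and 3.02 in PBS; by this ratio all 4 tumour arrays lay above both PBS arrays, as they did for Serping1 and, by the brightest probe sets, for the C1q genes, and its part in those values was not tested. Differences of the C1q genes, C4a/C4b and Serping1 that involve SC are therefore also given without each SC array, by the brightest probe sets. Differences are in log2(intensity + 25.6), from limma over all 6 arrays, with the Benjamini-Hochberg adjusted p over 27022 probe sets. In limma 0 probe sets passed an adjusted p of 0.05 in each of the 3 comparisons, and 1097, 2417 and 2141 had an unadjusted p under 0.05 in N-inv against PBS, in N-inv against SC and in SC against PBS. None of the differences of single genes below is therefore called a change.

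**Figure D1:**
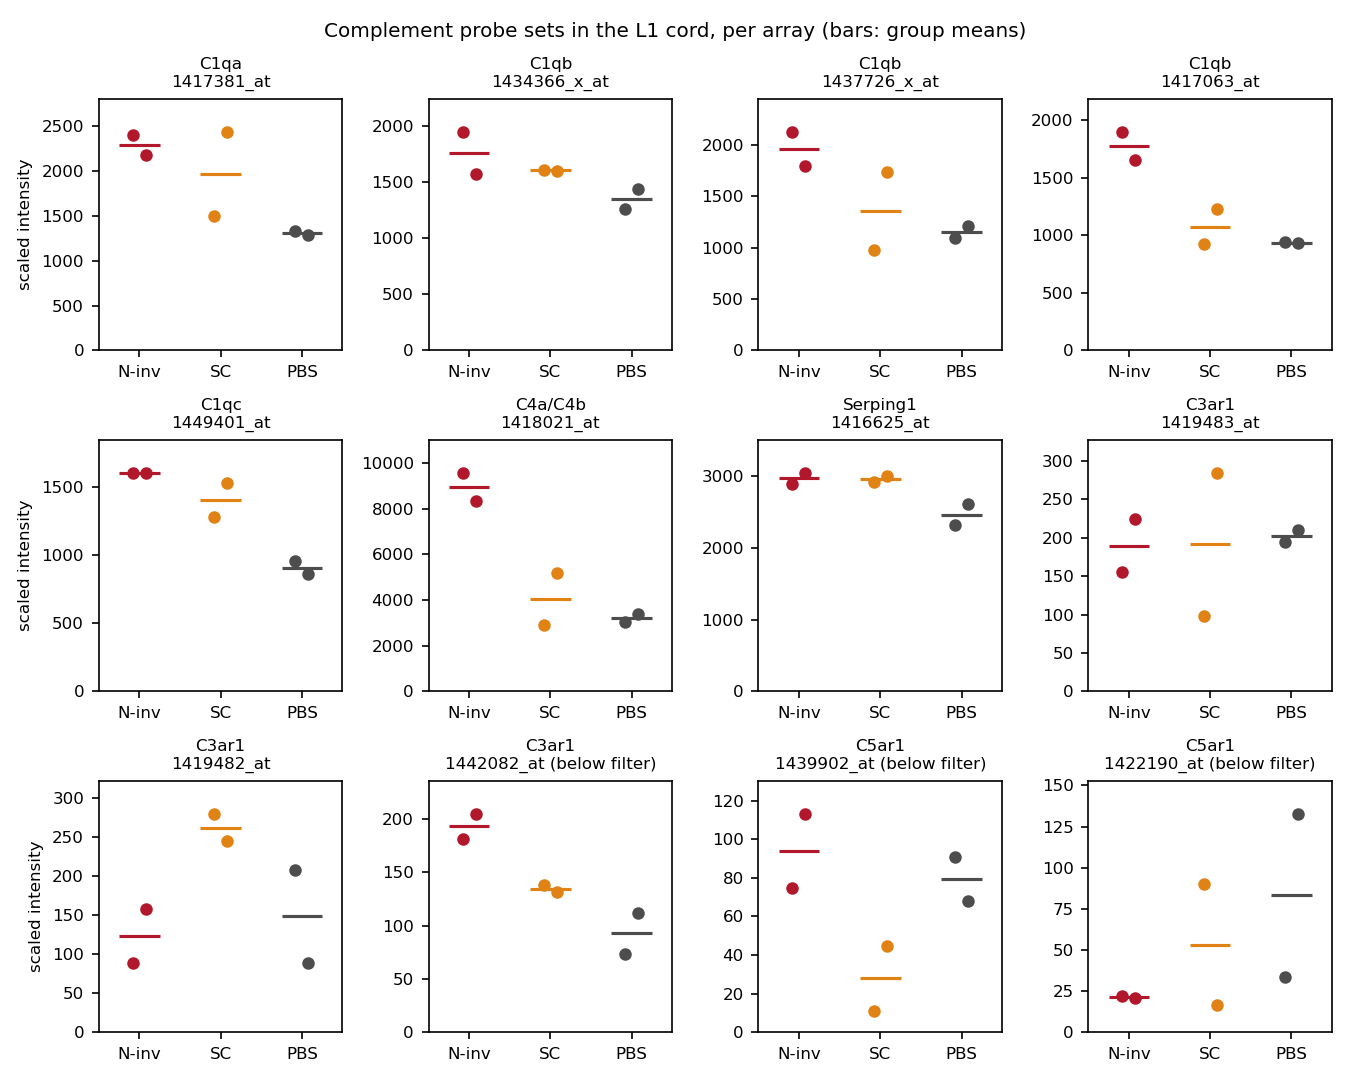
Scaled intensity (vertical axis, starting at 0) of each of the 12 complement probe sets in the N-inv, SC and PBS groups; each point is 1 array and each bar the mean of 2. The 5 C1q probe sets and C4a/C4b have both N-inv arrays above both PBS arrays, and the 3 probe sets below the filter lie at low intensities.

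The first comparison, N-inv against PBS, asks how the L1 cord differs between mice with tumour cells in the sciatic nerve and vehicle controls. C4a/C4b and the C1q chains measured higher with the nerve tumour, C4a/C4b most, while the C1 inhibitor lay slightly higher and C3ar1 and C5ar1 showed no common direction. Of the 8 genes 6 had a probe set above the filter; C5ar1 was below it and C3 was not analysed. By their brightest probe sets, both N-inv arrays lay above both PBS arrays in 5 of the 6 genes, where 21.6% of all probe sets tested did so. An unadjusted p under 0.05 in the higher direction was reached by 3 of the 6, where 2.28% of all probe sets reached it, and an adjusted p under 0.05 by 0 of the 6, as by 0% of all. In the other direction, 0 of the 6 had both N-inv arrays below both PBS arrays (14.6% of all) or a lower value with an unadjusted p under 0.05 (1.78% of all). The 8 genes were chosen with earlier results of these data known. Their counts beside the shares of all probe sets, here and in the comparisons below, are therefore descriptions only. Microglia and astrocyte markers are given below beside these values, and in cord tissue a gene's level cannot tell more cells of a type from more RNA per cell.

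C1qa, the first chain of C1q, measured 2403 and 2183 in N-inv, 1501 and 2437 in SC and 1328 and 1288 in PBS. Both N-inv arrays and both SC arrays lay above both PBS arrays, and the N-inv and SC arrays overlapped, because SC replicate 2 was the highest of the 6. The log2 difference of N-inv from PBS was 0.80 ± 0.24 (SE), a ratio of means of 1.75, at a limma adjusted p of 1 and an unadjusted p of 0.0144.

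C1qc, the third chain, measured 1607 and 1603 in N-inv, 1283 and 1532 in SC and 960.0 and 859.7 in PBS. The groups did not overlap and stood in the order N-inv, SC, PBS. The N-inv to PBS difference was 0.80 ± 0.17 (SE), rank 50 of 27022 by p, at a limma adjusted p of 1.

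C1qb, the second chain, had 3 probe sets, which disagreed on the size of the difference. The brightest, 1434366_x_at, measured 1948 and 1573 in N-inv, 1607 and 1602 in SC and 1263 and 1439 in PBS. The probe set 1437726_x_at measured 2130 and 1797 in N-inv, 978.7 and 1737 in SC and 1092 and 1216 in PBS. In 1417063_at the values were 1902 and 1654 in N-inv, 922.8 and 1227 in SC and 944.2 and 930.6 in PBS. All 3 had both N-inv arrays above both PBS arrays, and the last 2 had both N-inv arrays above the other 4 arrays, which the brightest did not. Their log2 differences between N-inv and PBS came to 0.37 ± 0.18, 0.75 ± 0.28 and 0.90 ± 0.19 (SE), and the limma adjusted p was 1 for each. The suffix x marks probe sets whose probes can match other transcripts, and the probe set without it had the largest difference of the 3.

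C4a/C4b, read by the probe set that C4b shares with C4a, had the largest N-inv to PBS difference of the 6 genes above the filter. It measured 9578 and 8352 in N-inv, 2909 and 5193 in SC and 3061 and 3370 in PBS. Both N-inv arrays lay above the other 4, the PBS arrays lay close together, and SC replicate 2 stood between them and N-inv. The N-inv mean of 8965 ± 867 was 2.79 times the PBS mean of 3215 ± 218 (SD, n = 2 each). On the log2 scale this was 1.47 ± 0.28 (SE), at rank 37 of 27022 by p and a limma adjusted p of 0.96.

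Serping1, the inhibitor of C1r and C1s, measured 2890 and 3045 in N-inv, 2915 and 3002 in SC and 2314 and 2606 in PBS. The N-inv and SC arrays covered the same range, and all 4 lay above the PBS arrays. The differences from PBS were 0.27 ± 0.16 (SE) in N-inv and 0.27 ± 0.16 (SE) in SC, with adjusted p of 1 and 0.743 in limma. That between N-inv and SC was 0.00 ± 0.16 (SE). Without SC replicate 2 the SC to PBS and N-inv to SC differences were 0.25 and 0.03; leaving out SC replicate 1 instead gave 0.29 and -0.02. The summed level of 8 markers of meningeal fibroblasts overlapped between the groups, at 31432 and 34188 in N-inv, 33794 and 28116 in SC and 27355 and 35128 in PBS.

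The receptor genes were dim. C3ar1, for the receptor of C3a, had 3 probe sets that did not move together. Its brightest, 1419483_at, measured 156.0 and 224.1 in N-inv, 98.57 and 284.9 in SC and 194.8 and 210.8 in PBS. The second, 1419482_at, measured 88.52 and 158.4 in N-inv, 279.6 and 244.3 in SC and 207.9 and 88.65 in PBS. The third, 1442082_at, lay below the filter, at 180.8 and 204.7 in N-inv, 137.8 and 131.3 in SC and 73.58 and 111.6 in PBS. The first had overlapping groups, the second had both N-inv arrays below both SC arrays, and the third had the order N-inv, SC, PBS with no overlap. With no filter the third differed between N-inv and PBS by 0.90 ± 0.23 (SE), at a limma adjusted p of 0.769, so no direction can be given for this gene.

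C5ar1, for the receptor of C5a, had both of its probe sets below the filter. The probe set 1439902_at measured 74.62 and 113.2 in N-inv, 11.11 and 44.95 in SC and 90.65 and 67.79 in PBS, and 1422190_at measured 21.87 and 20.81 in N-inv, 90.22 and 16.43 in SC and 33.86 and 132.8 in PBS. The order of the groups differed between the 2 probe sets. In 1439902_at both SC arrays lay below the other 4, with no-filter differences of 1.21 ± 0.38 (SE) between N-inv and SC and -1.03 ± 0.38 (SE) between SC and PBS, whose limma adjusted p were 0.593 and 0.719; in 1422190_at the SC arrays overlapped PBS. Between N-inv and PBS the differences of the 2 probe sets were 0.18 ± 0.38 and -1.05 ± 0.65 (SE), and the limma adjusted p was 1 for both.

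**Figure D2:**
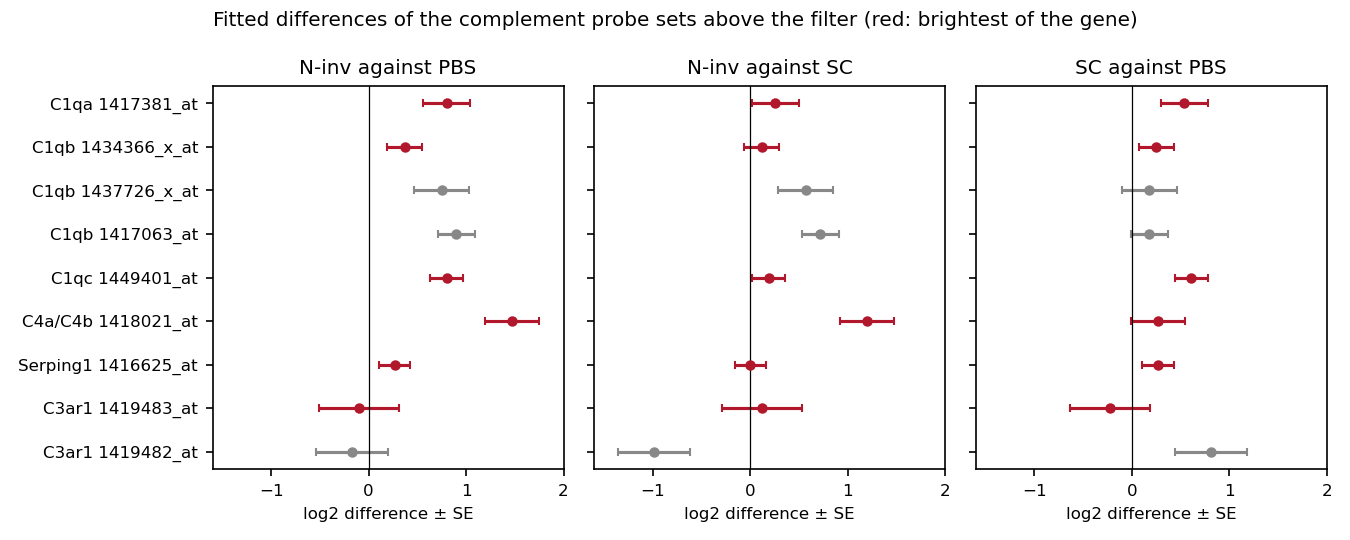
Log2 differences with standard errors (horizontal axes) of the 9 complement probe sets above the filter in the 3 comparisons; red points are the brightest probe set of a gene. C4a/C4b stands at 1.47 against PBS and 1.20 against SC, while its SC to PBS difference is 0.27.

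The second comparison, N-inv against SC, sets tumour cells in the nerve against the same cells under the skin. C4a/C4b was the gene set apart here. The C1q chains by their brightest probe sets and Serping1 were closer between these groups than between N-inv and PBS. Both N-inv arrays lay above both SC arrays in 2 of the 6 genes, C1qc and C4a/C4b, where 23.6% of all probe sets tested did so. The higher direction with an unadjusted p under 0.05 held 1 of the 6, where 5.96% of all probe sets reached it, and 0 of the 6 had an adjusted p under 0.05, as did 0% of all. Both N-inv arrays lay below both SC arrays in 0 of the 6 (13.3% of all), and 0 were lower with an unadjusted p under 0.05 (2.99% of all). Both N-inv arrays lay above all other 4 arrays in the same 2 genes, where 9.07% of all probe sets did so.

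For C4a/C4b the difference between N-inv and SC was 1.20 ± 0.28 (SE), at a limma adjusted p of 0.445 and a ratio of means of 2.21. Without SC replicate 2 it was 1.61, and without SC replicate 1 it was 0.78. The C1qa difference of 0.26 ± 0.24 (SE) depended on the same arrays, at 0.60 without SC replicate 2 and -0.09 without SC replicate 1. For C1qc it was 0.19 ± 0.17 (SE), and 0.32 and 0.07 without those arrays. C1qb again differed by probe set, at 0.12 ± 0.18 by the brightest (0.12 without SC replicate 2 and 0.13 without SC replicate 1) and 0.72 ± 0.19 (SE) by 1417063_at, whose adjusted p was 0.445 in limma. Without SC replicate 2 both N-inv arrays lay above the remaining SC array in 4 of the 6 genes, where 54.2% of all probe sets did so, and 3 of the 6 were higher with an unadjusted p under 0.05, where 12.5% of all were. Without SC replicate 1 these counts were 2 and 1 of the 6, where the shares of all were 35.3% and 7.97%. With 1 SC array left, SC is assumed to vary like the other groups.

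The third comparison, SC against PBS, asks what tumour cells away from the nerve go with. The C1q genes and Serping1 measured higher in SC, and C4a/C4b was split between the SC arrays. Both SC arrays lay above both PBS arrays in 4 of the 6 genes, C1qa, C1qb, C1qc and Serping1, where 14.2% of all probe sets tested did so. Only C1qc of the 6 had an unadjusted p under 0.05, where 2.76% of all probe sets had one in the higher direction, and 0 had an adjusted p under 0.05, as did 0% of all. In the lower direction, 0 of the 6 had both SC arrays below both PBS arrays (20.2% of all), and 0 were lower with an unadjusted p under 0.05 (5.17% of all). C1qc differed by 0.61 ± 0.17 (SE) and C1qa by 0.54 ± 0.24 (SE), with adjusted p of 0.515 and 0.66 in limma. C1qa was at 0.20 without SC replicate 2 and at 0.89 without SC replicate 1, and C1qc was at 0.49 and 0.74. The C4a/C4b difference was 0.27 ± 0.28 (SE), turning to -0.14 when SC replicate 2 was left out and to 0.69 when SC replicate 1 was. C1qb differed by 0.25 ± 0.18 (SE), and by 0.25 and 0.24 without those arrays. Its other 2 probe sets overlapped between SC and PBS, with differences of 0.18 ± 0.28 and 0.18 ± 0.19 (SE). The 3 comparisons share arrays, so their values are not independent of each other.

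Markers of microglia, the cells known for C1q, were read beside these values. Of 20 listed genes, which hold none of the complement genes described here, 18 were above the filter and Trem2 was below it. All 18 were higher in N-inv than in PBS, with a median log2 difference of 0.50, beside 0.04 over 12614 named genes tested, 59.9% of which were higher. Between SC and PBS the median was -0.19, with 6 of the 18 higher and 12 lower. The summed level of the list was 55306 and 48866 in N-inv, 28419 and 36047 in SC and 34299 and 34857 in PBS.

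The mean of the 3 C1q genes, set against its PBS mean on the log2 scale, stood at 0.73 and 0.58 on the N-inv arrays and 0.31 and 0.62 on the SC arrays. It takes the brightest probe set of each gene, for C1qb 1434366_x_at, which had the smallest N-inv to PBS difference of its probe sets. The others, 1437726_x_at and 1417063_at, measured 978.7 and 922.8 on SC replicate 1, below both PBS arrays. On SC replicate 2 they measured 1737 and 1227, above both PBS arrays. A C1q mean with these probe sets was not computed. The microglia list mean stood at 0.55 and 0.51 on the N-inv arrays and -0.14 and -0.29 on the SC arrays. By these means of log2 values, C1q and the markers both stood above PBS in N-inv, and in SC the C1q mean stood above and the marker mean below. The summed level did not show this on SC replicate 2, where 36047 was above both PBS arrays. The C1q mean minus the list mean, set to 0 at the PBS mean, was 0.18 and 0.08 in N-inv, 0.45 and 0.91 in SC and 0.03 and -0.03 in PBS. The part of these markers, or of the RNA quality and the Xist signal of SC replicate 2, in the C1q values was not tested. Marker genes of meningeal and perivascular macrophages, which can also make C1q, summed to 2619 and 2530 in N-inv, 2788 and 2912 in SC and 2969 and 2917 in PBS, so both N-inv arrays lay below the other 4.

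**Figure D3:**
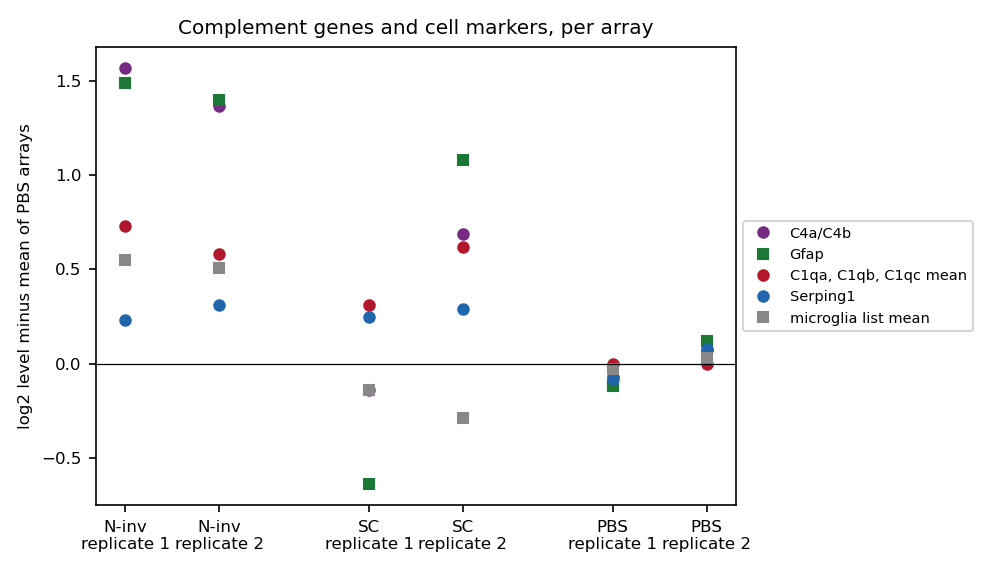
Log2 level of each array minus the mean of the PBS arrays (vertical axis) for C4a/C4b, Gfap, the C1q mean, Serping1 and the mean of 18 microglia markers. The C1q mean takes the brightest probe set of each C1q gene. Each point is 1 array. C4a/C4b and Gfap lie together at 1.37 to 1.57 in N-inv, and the C1q mean lies above the microglia markers in both SC arrays; the C4a/C4b point of SC replicate 1 is hidden by the microglia point at -0.14.

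C4a/C4b went with the astrocyte gene Gfap, an intermediate filament known to increase in reactive astrocytes, more than with the C1q genes. On the same scale C4a/C4b was at 1.57 and 1.37 for N-inv, with -0.14 and 0.69 for SC. Gfap was at 1.49 and 1.40 for N-inv, with -0.64 and 1.08 for SC. SC replicate 1 was low and SC replicate 2 high in both. All 10 astrocyte markers were above the filter, 8 of them higher in N-inv than in PBS, with a median of 0.11, and their summed level was 224600 and 229059 in N-inv, 170894 and 218427 in SC and 186921 and 199114 in PBS. Their part in the C4a/C4b values was not tested.

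Likeness of patterns was measured as the root mean square difference between centred log2 values over the 6 arrays, among 12609 other genes. Closest to C4a/C4b were Aspg, Serpina3n, Gal, Cyp1b1 and Gfap, with differences of 0.122, 0.136, 0.168, 0.212 and 0.262, where the median gene was at 0.668. Serpina3n, a serine protease inhibitor, measured 3829 and 3375 in N-inv, 1252 and 2748 in SC and 1288 and 1396 in PBS. Closest to the C1q mean were Anxa2, Sema6a, Unk, Hspb1 and Cnnm4, at 0.0288 to 0.0889, where the median gene was at 0.318. Anxa2, which encodes annexin A2, measured 6217 and 5561 in N-inv, 4564 and 5752 in SC and 3917 and 3779 in PBS. Among the complement genes, by their brightest probe sets, C1qb and Serping1 were the closest pair, at 0.122, followed by C1qa and C1qc at 0.140, and C4a/C4b lay 0.402 to 0.698 from each of the others. The first pair rests on 1434366_x_at of C1qb, at 0.37 in N-inv against PBS. The other C1qb probe sets, 1437726_x_at and 1417063_at, were at 0.75 and 0.90 there, and Serping1 at 0.27.

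The rest of the pathway was read from a list of 52 complement genes, of which 43 had a probe set of their own and 23 were above the filter. In N-inv against PBS 14 of the 23 were higher and 9 lower, with a median of 0.05, beside 0.04 over all named genes. An unadjusted p under 0.05 was found for 1 gene higher and 2 lower, where 2.28% and 1.78% of all probe sets had one, and 0 had an adjusted p under 0.05 in limma. In N-inv against SC the counts were again 14 higher and 9 lower, with a median of 0.08. Over all named genes the median was 0.06 and 60.5% were higher. In SC against PBS 12 were higher and 11 lower, with a median of 0.01, beside -0.02 and 46.8% over all named genes. A limma unadjusted p under 0.05 was found in N-inv against SC for 1 gene higher and 3 lower, where 5.96% and 2.99% of all probe sets had one. In SC against PBS it was found for 1 higher and 1 lower, where the shares were 2.76% and 5.17%. C8g is among the lower genes in N-inv against PBS and in N-inv against SC. It passed the filter through its SC and PBS arrays, so its place in these counts is a description only. By their median, then, the 23 other complement genes above the filter lay close to the genes of the array at large. The 20 below the filter are not part of this median. With no filter their N-inv to PBS differences ran from -0.99 to 1.85, at low intensities.

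Of the proteases that act next to C1q, C1s1 measured 306.8 and 261.8 in N-inv, 281.9 and 222.4 in SC and 278.3 and 220.8 in PBS, with overlapping groups. C1ra was below the filter, at 332.0 and 233.2 in N-inv, 216.7 and 75.70 in SC and 48.11 and 104.8 in PBS. Both of its N-inv arrays lay above the other 4, with a difference from PBS of 1.63 ± 0.52 (SE) and a limma adjusted p of 0.902 with no filter. C2, the protease subunit of the C3 convertase, went the other way, at 329.2 and 363.1 in N-inv, 497.4 and 506.4 in SC and 446.9 and 461.8 in PBS. Its difference between N-inv and PBS was -0.37 ± 0.15 (SE), at a limma adjusted p of 1.

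In the alternative pathway, Cfb, the factor B protease, was below the filter and measured 226.6 and 222.0 in N-inv, 168.8 and 142.4 in SC and 19.13 and 81.39 in PBS. The groups did not overlap, and with no filter the N-inv to PBS difference was 1.85 ± 0.43 (SE), at a limma adjusted p of 0.681. Cfp, properdin, which stabilises the convertase, measured 1179 and 1215 in N-inv, 1250 and 981.0 in SC and 1408 and 1229 in PBS. Of the terminal components that form the membrane pore, Hc, the mouse C5 gene, was below the filter, at 84.12 and 98.60 in N-inv, 73.06 and 6.361 in SC and 111.6 and 96.02 in PBS. C8g, the gamma chain of C8, was the 1 terminal gene above the filter, at 126.7 and 90.30 in N-inv, 181.4 and 179.9 in SC and 167.5 and 242.2 in PBS. Its N-inv arrays lay below the other 4, by -0.78 ± 0.22 (SE) from PBS, at a limma adjusted p of 1. C8g passed the filter through its SC and PBS arrays, and its N-inv arrays lie below the filter intensity, so this difference is a description only.

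Of the 3 soluble and 8 membrane inhibitors above the filter, 0 had an unadjusted p under 0.05 between N-inv and PBS; those below the filter are not described. Clu, a secreted chaperone that also blocks the membrane pore, measured 38763 and 41093 in N-inv, 34440 and 41229 in SC and 32289 and 33619 in PBS, and its difference between N-inv and PBS was 0.28 ± 0.17 (SE). Cfi, which cleaves C3b and C4b, overlapped between the groups, with a difference of 0.16 ± 0.21 (SE). The 8 membrane inhibitors above the filter, among them Cd55, Cd59a and Cr1l, lay between -0.15 and 0.30, with 4 higher and 4 lower. Cd55, which dissociates convertases, was the 1 of them with an unadjusted p under 0.05 in the lower direction in SC against PBS, at 342.4 and 345.5 in SC and 571.5 and 471.1 in PBS, at a limma adjusted p of 0.591. In N-inv it measured 423.8 and 572.8. Csmd2, chosen after its values were seen, was the 1 with such a p in the higher direction, at 384.9 and 522.5 in SC and 307.2 and 271.1 in PBS, a difference of 0.59 ± 0.20 (SE) with a limma adjusted p of 0.59. Over all probe sets 5.17% were lower and 2.76% higher at such a p.

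Among receptors, Itgb2, the beta chain of complement receptors 3 and 4, measured 471.5 and 537.7 in N-inv, 382.5 and 576.1 in SC and 338.2 and 330.2 in PBS. Both tumour groups lay above PBS, by 0.56 ± 0.22 and 0.46 ± 0.22 (SE), with adjusted p of 1 and 0.679 in limma. The alpha chains Itgam and Itgax were below the filter, at 120.0 and 105.4 and at 93.32 and 101.0 in N-inv, and at 125.7 and 122.8 and at 113.3 and 68.82 in PBS. Itgb2 is the 1 gene of the receptor group with an unadjusted p under 0.05 in N-inv against PBS.

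**Figure D4:**
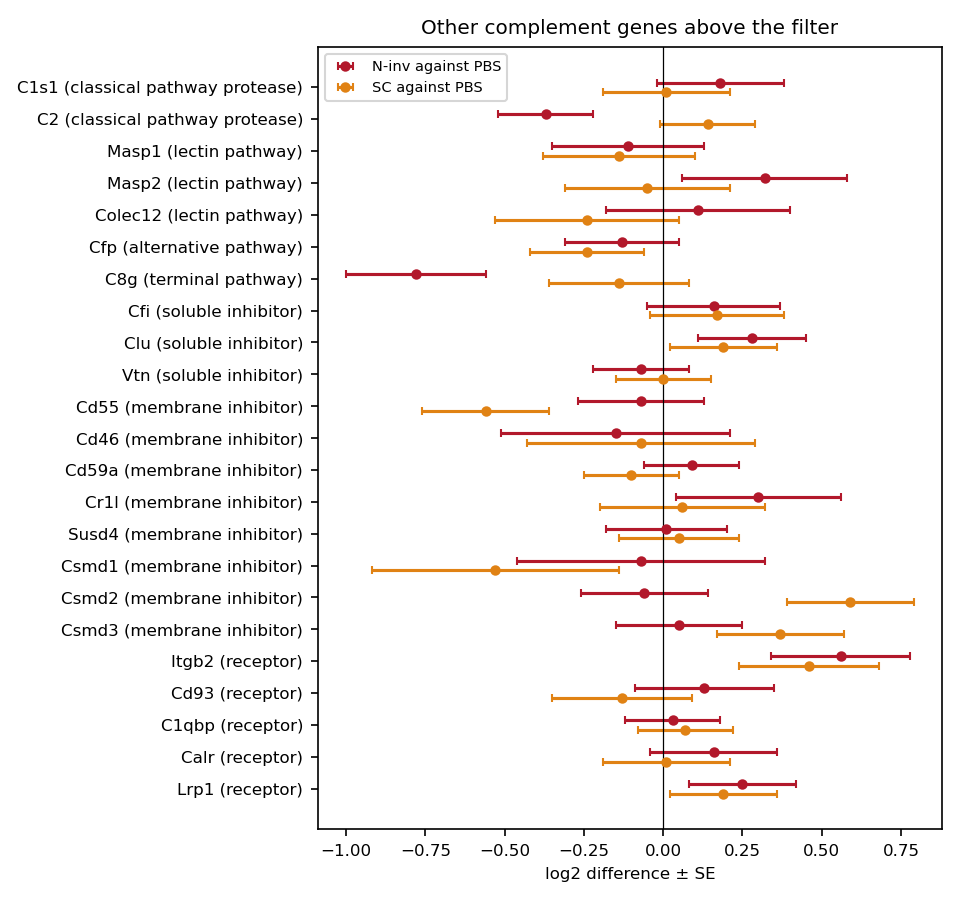
Log2 differences with standard errors (horizontal axis) of the 23 other complement genes above the filter, for N-inv against PBS and SC against PBS, with the role of each gene in brackets. Most lie near 0. Itgb2 stands at 0.56 and 0.46, C8g at -0.78 and -0.14 and C2 at -0.37 and 0.14. C8g passed the filter through its SC and PBS arrays, and its N-inv arrays lie below the filter intensity.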

How the data were processed

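TRIzol RNA of the L1 cord, 100 ng per sample, went through a two-cycle biotin labelling before hybridisation to Affymetrix arrays, per the labels' protocols. The authors deposited linear intensities per probe set. Their trimmed mean was 1000 on every array, so the arrays had been scaled; the summarising method and a genome build are not given in the sources used here. Of 45101 probe sets 64 controls were left out. Arrays were brought to 1 median, 256.2, and analysed as log2(intensity + 25.6), where folds of dim genes come out too small. Probe sets above the 40th percentile of the mean log2 value went into 1 two-sided model (lmFit and eBayes of limma 3.58.1, R 4.3.3) over all 6 arrays, which had 3 residual and 3.72 prior degrees of freedom. Genes with several probe sets are counted by the brightest. Exact permutation of 2 against 2 arrays reaches no p below 0.333 and was not used; arrays have no read depth, and their number limits the precision. Scripts were tested on simulated data.

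The members and lists were chosen with earlier results of these data known. All members were named with every probe set; of the other complement genes, those past the adjusted threshold and in any case (C1ra, C1s1, C2, Hc, Cfb, Cfd, Cfi, Cfp, Cd55, Cd59a, Cr1l, Clu, Itgam, Itgax, Itgb2) were named where measured; Cfd was not analysed here, 1 further gene that the rule names is not reported here, and genes outside the rule are given by counts and ranges. C8g and Csmd2 were named after their values were seen. The 5 most similar genes were named for the C1q mean and for C4a/C4b. Gene symbols come from the platform annotation, in which 34945 probe sets have 1 symbol, 932 several and 9160 none. Lists of cell markers were read as summed levels. Neutrophil markers summed to 1354 and 1429 in N-inv, 2895 and 5195 in SC and 4034 and 1488 in PBS, endothelial markers to 13087 and 14674, 10504 and 12470, and 11850 and 12989, and oligodendrocyte, neuron, liver and red blood cell lists were used to check the tissue. Scaling, pseudocount, filter, samples in the fit, variance trend, replicate block, probe set averaging and each array left out in turn were varied.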

Additional observations from a re-analysis of the deposited data

Results flagged for a closer look

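Of the 9 complement probe sets described and the 23 other complement genes above the filter, 2 had the N-inv arrays on one side of the PBS arrays and the SC arrays on the other, which is 6.25% of these 32, where 3.85% of all 27022 probe sets did so. With only 2 such genes this is a description, not a result about complement. C2 had both N-inv arrays below and both SC arrays above PBS, and its log2 difference of N-inv from SC was -0.51 ± 0.15 (SE), at a limma adjusted p of 0.461. Cd59a, an inhibitor of the membrane pore, had the reverse order, at 3730 and 3688 in N-inv, 3168 and 3313 in SC and 3361 and 3585 in PBS, with a difference of N-inv from SC of 0.19 ± 0.15 (SE) and a limma adjusted p of 0.765.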

How the results depend on the processing

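The number of complement genes with an adjusted p under 0.05 in limma was 0 in each of the 3 comparisons under each alternative run, and the smallest adjusted p of any of them was 0.14, for C4a/C4b in N-inv against SC without SC replicate 2. Against PBS, the N-inv differences of C1qa, C1qb, C1qc, C4a/C4b and Serping1 kept their direction in 16 of 16 alternatives, with ranges of 0.73 to 0.86, 0.22 to 0.67, 0.73 to 0.88, 1.37 to 1.57 and 0.19 to 0.35. Changing the filter, the groups in the fit, the variance trend or the block, or leaving out an SC array, cannot alter these differences. With both N-inv arrays above both PBS arrays, leaving out 1 of those arrays could not turn a direction either. The count of members with all arrays above was 5 to 6 with 1 array left out, where the share over all probe sets is not given. Leaving out 1 array gave 0 to 1, 0 to 1 and 0 to 9 probe sets called over the whole array in N-inv against PBS, in N-inv against SC and in SC against PBS (9 without SC replicate 1), and changed the members higher at an unadjusted p under 0.05 to 1 to 3 in N-inv against SC and 0 to 3 in SC against PBS (0 without PBS replicate 2). The members above all SC arrays were then 2 to 4. With 1 SC array left such separation was commoner over all probe sets. It was 35.3% without SC replicate 1 and 54.2% without SC replicate 2, where all arrays gave 23.6%. For the other alternative runs the share over all probe sets is not given, so their counts are descriptions only. The median of the other complement genes ranged from -0.03 to 0.12 in N-inv against SC and from -0.04 to 0.09 in SC against PBS. Sprr1a was the 1 probe set called in N-inv against PBS with only the groups compared, and Depp1 the 1 with an intensity trend, which called 2 in N-inv against SC, Serpinb1a and Depp1; these were chosen after their values were seen. In SC against PBS 2 members were higher at an unadjusted p under 0.05 with quantile normalization, values as deposited, a pseudocount of the median divided by 2.5, a filter at the 60th percentile and an intensity trend. Directions turned for C3ar1 with the mean of its probe sets (-0.43 in N-inv against SC, 0.30 in SC against PBS) and with 1 array left out (-0.33 to 0.13, -0.54 to 0.78 and -0.88 to 0.44 in the 3 comparisons), for C1qa and C1qb in N-inv against SC (-0.09 to 0.60 and -0.03 to 0.28) and for C4a/C4b in SC against PBS (-0.14 to 0.69), and Serping1 in N-inv against SC stayed near 0 on either side (-0.06 to 0.04); beyond the fewer arrays or the averaging, the cause was not tested. C3ar1 was below the filter at the 60th percentile. Replicate numbers did not pair the arrays, with correlations of same-numbered deviations of -0.032, 0.01 and 0.041. With the replicate block 0 probe sets were called in each comparison, and C4a/C4b was at 1.47 in N-inv against PBS, a value that this balanced block cannot change. Dim probe sets, such as those of C5ar1, limit what can be detected.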
